A study of Mus musculus with 8 samples.

Results

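Kinesins are motor proteins that turn the energy of ATP into movement along microtubules or into the shortening of microtubule ends. One set builds the mitotic spindle, moves chromosomes and completes cytokinesis, and its genes are transcribed mainly in dividing cells. Another set carries vesicles, organelles and ciliary cargo between divisions, and the rest act in cilia, in signalling or on microtubule dynamics. The kinesin motor genes described here are the protein-coding rows of the deposited count table whose symbol has the form Kif followed by a number or the letter c. They numbered 43 of 56748 rows, and 35 of the 43 passed the filter on low counts. By known role, 14 were taken as mitotic motors, 15 as transport motors and 14 as other kinesins, of which 13, 14 and 8 passed.

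RNA was sequenced from primary cardiac fibroblasts of wild-type C57BL/6J mice aged 1 day. In 4 cultures the cells were given TGF-β1 (transforming growth factor beta 1) at 10 ng/mL for 48 h, and 4 cultures were left untreated. This cytokine turns fibroblasts into contractile myofibroblasts that lay down matrix. The replicates came from different litters, per the series design, and the labels do not say whether a litter was split over both conditions. The treatment protocol also names the MRN inhibitor Mirin, but no library here is labelled with it.

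Library totals were 14340740 to 17176898 counts. Untreated replicate 1 stood apart in ribosomal RNA, at 0.0332% of its counts against 1.09% to 2.56% in the other 7 libraries. The fibroblast markers Col1a1, Col1a2, Pdgfra, Tcf21, Dcn, Lum and Vim were all tested, 2 higher and 4 lower, with summed levels of 19620 to 21298 CPM in TGF-β1 libraries and 15230 to 16769 CPM in untreated libraries. Markers of other cells were present as well. Cardiomyocyte markers summed to 371.9 to 452.1 CPM with TGF-β1 and 716 to 786 CPM without, and 10 of 10 fell. Epicardial and mesothelial markers (812 to 843 against 1046 to 1106 CPM) fell in 3 of 6 cases. Mural markers (1151 to 1244 against 1040 to 1072 CPM) were called for each of the 4 genes tested, 3 higher and 1 lower. The other 3 of 7 mural markers were not tested. Higd1b had 0 counts in TGF-β1 libraries and 3 in untreated libraries, Kcnj8 had 2 and 7, and Abcc9 had 30 and 36. Endothelial markers summed to 70.8 to 78.3 CPM with TGF-β1 and 75.9 to 76.9 CPM without, with 2 of 7 higher and 2 lower. Macrophage markers summed to 163.7 to 198.0 CPM with TGF-β1 and 179.7 to 219.3 CPM without, with 1 of 7 higher and 1 lower. With library totals 5 epicardial markers were called lower, 2 mural and 1 endothelial marker higher, and 2 macrophage markers lower, while fibroblast and cardiomyocyte counts stayed as given. Over all genes tested, 17.6% were called higher and 18.5% lower.

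Of the 35 kinesin genes tested, 23 were called changed between TGF-β1 and untreated cultures, 6 higher and 17 lower (quasi-likelihood test of edgeR, with p adjusted by Benjamini-Hochberg over all 13960 genes tested and called under 0.05). Over all genes 36.0% were called, 17.6% higher and 18.5% lower. All 13 tested mitotic motors fell, with a median log2 fold change of −2.44, which is 5.42-fold lower. Transport motors had a median of 0.03, with 3 of 14 higher and 2 lower, and the other kinesins had a median of −0.05, with 3 of 8 higher and 2 lower. The median over all genes tested was 0.01. The share of mitotic motors called lower was above the 18.5% of all genes, and the share of transport motors called higher, 3 of 14, was near the 17.6%. The role classes were chosen with earlier results of these data known, so these shares are a description and not a test.

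**Figure D1:**
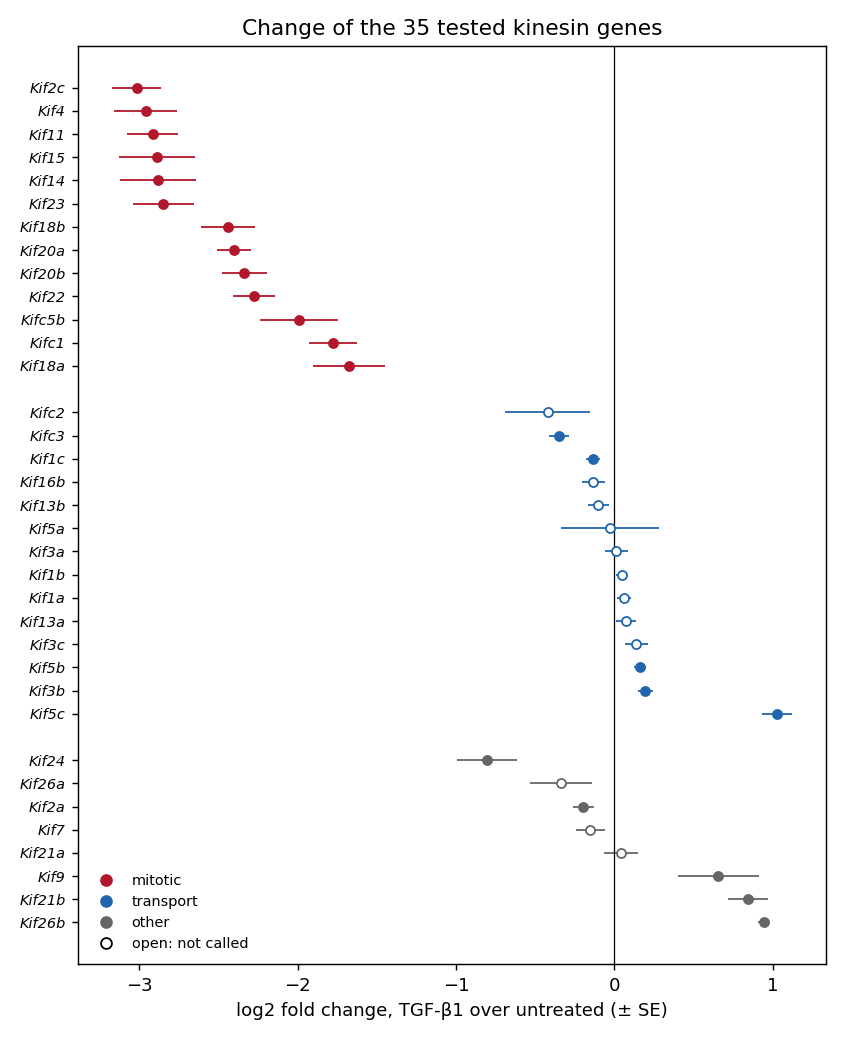
Log2 fold change of TGF-β1 over untreated libraries for the 35 tested kinesin genes, with the standard error as bars, grouped by role; filled points were called at an adjusted p under 0.05. The mitotic motors lie between −3.01 and −1.67, apart from the transport motors at −0.42 to 1.03 and the other kinesins at −0.80 to 0.94.

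Kif20a, which brings the chromosomal passenger complex to the central spindle during cytokinesis, had the smallest p of the mitotic class. Its normalised count was 6.07, 4.56, 6.33 and 5.25 CPM in TGF-β1 libraries and 33.1, 29.4, 25.6 and 29.2 CPM in untreated libraries. Every TGF-β1 library lay below every untreated one, and the log2 fold change was −2.40 ± 0.11 (± SE, adjusted p = 5.07e-14 by edgeR). In the GENCODE M39 annotation 61.5% of the exonic bases of Kif20a lie under exons on the opposite strand, mostly those of Cdc23, and no source used here says whether the counting used strand. Cdc23 was at 72.7 ± 2.45 CPM in TGF-β1 libraries and 71.6 ± 3.14 CPM in untreated libraries (SD, n = 4 each) and was not called (edgeR adjusted p = 0.754).

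Kif2c, a microtubule depolymerase of centromeres that corrects wrong attachments, fell the most of the class. It had 1.48, 2.07, 1.97 and 2.09 CPM with TGF-β1 and 15.9, 18.5, 12.5 and 15.1 CPM without. This was 8.08-fold lower, a log2 fold change of −3.01 ± 0.16 (± SE, adjusted p = 6.05e-13 by edgeR). Kif11, the four-headed motor that pushes the spindle poles apart (ENSMUSG00000012443, GRCm39 chromosome 19, 37364851 to 37410307, plus strand), had 3.53, 1.59, 2.89 and 1.97 CPM in TGF-β1 libraries and 20.4, 19.96, 16.3 and 18.1 CPM in untreated libraries. It was 7.54-fold lower with TGF-β1 (log2 fold change −2.91 ± 0.16, edgeR adjusted p = 1.56e-12), and the groups did not overlap. Untreated replicate 3 was the lowest untreated library for both genes.

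The chromokinesins Kif22 and Kif4 bind chromosome arms, and Kif22 pushes them toward the spindle equator. Kif22 had 4.80, 3.18, 4.22 and 2.80 CPM with TGF-β1 and 18.6, 19.4, 17.05 and 17.3 CPM without (log2 fold change −2.28 ± 0.13, edgeR adjusted p = 4.56e-12). Kif4 had 2.61, 1.11, 0.844 and 1.73 CPM with TGF-β1 and 11.2, 12.7, 11.7 and 13.6 CPM without (log2 fold change −2.96 ± 0.20, edgeR adjusted p = 4.92e-11). The highest TGF-β1 library of each gene was below its lowest untreated one. Antisense exons cover 11.1% of the exonic bases of Kif4, mostly those of Pdzd11, which was not called, and a smaller gene with 2 counts in TGF-β1 and 10 in untreated libraries, Gm31749, overlaps Kif22. Kif20b, a cytokinesis motor related to Kif20a, had 2.47, 2.63, 3.10 and 4.06 CPM in TGF-β1 libraries against 14.1, 16.8, 14.6 and 16.9 CPM in untreated libraries. Its log2 fold change was −2.34 ± 0.14 (edgeR adjusted p = 7.60e-12).

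The remaining 7 tested mitotic motors fell by 1.67 to 2.89 on the log2 scale. Kif23 forms the centralspindlin complex of the midzone with Racgap1 and was at 1.87 ± 0.88 CPM with TGF-β1 and 13.8 ± 1.09 CPM without (SD, n = 4 each), a log2 fold change of −2.85 ± 0.19. Kif15, which helps to keep the spindle bipolar, changed by −2.89 ± 0.24, and Kif14, which acts with citron kinase in cytokinesis, by −2.88 ± 0.24. The related motors Kif18a and Kif18b, which act at the plus ends of microtubules, changed by −1.67 ± 0.23 and −2.44 ± 0.17. Kifc1, a minus-end motor that gathers spindle poles, changed by −1.78 ± 0.15, and Kifc5b by −1.99 ± 0.25. These last values are uncertain one by one, since 75.4% of the longest Kifc1 transcript matches transcripts of other genes at 98% identity or more, with Kifc5b giving the longest match of 1882 bases. Summed, the pair was at 5.44 ± 0.62 CPM in TGF-β1 libraries and 19.5 ± 3.45 CPM in untreated libraries. Kif2b, a depolymerase related to Kif2c, had no count in any library, which allows up to 0.0247 CPM (3 counts over all libraries, counting error only).

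**Figure D2:**
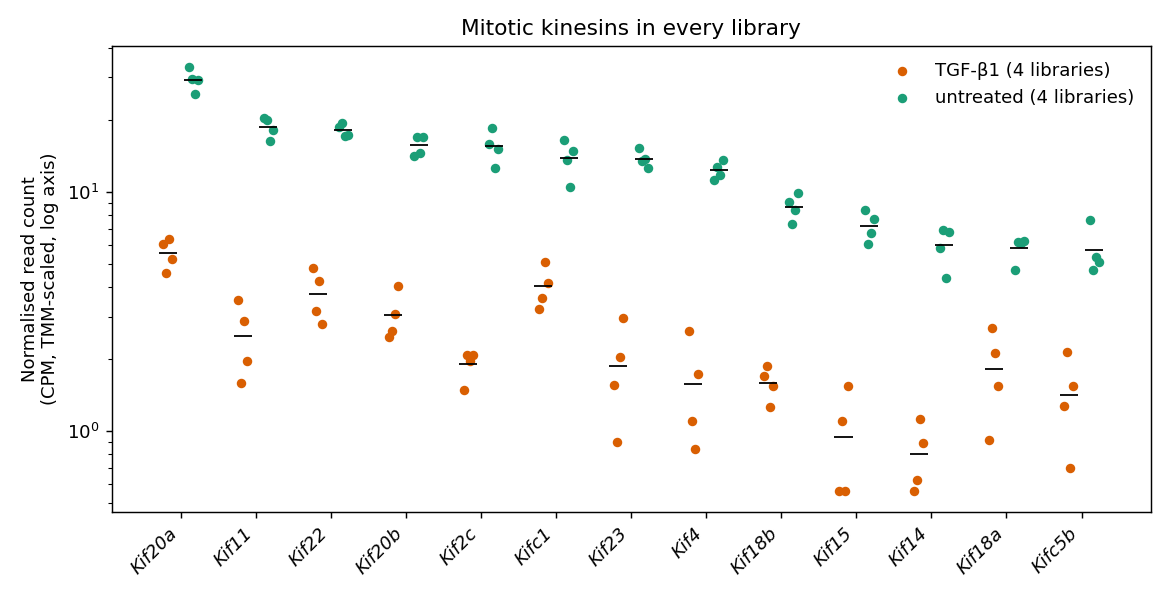
Normalised read counts (CPM, TMM-scaled, log axis) of the 13 tested mitotic kinesins in the 4 TGF-β1 and 4 untreated libraries, with lines at the group means. For each gene all TGF-β1 points lie below all untreated points, from 0.563 to 6.33 CPM with TGF-β1 against 4.38 to 33.1 CPM without.

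All 13 mitotic motors had groups that did not overlap, as did 33.9% of all genes tested, and the calls were the same under each of the 18 alternative settings tried. The counts behind the TGF-β1 values are small: summed over its 4 TGF-β1 libraries, the class ran between 48 counts for Kif14 and 330 for Kif20a, against 350 for Kifc5b and 1812 for Kif20a in untreated libraries. Kif14 and Kif15 had fewer than 10 counts in some TGF-β1 libraries, so they passed the filter through the untreated libraries. Members that pass in this way are tested only because their untreated level is high. Between replicates the members did not rank alike. Of the 13, Kif11 was highest in TGF-β1 replicate 1, Kif18a in replicate 2 and Kif23 in replicate 4, and each TGF-β1 library was the highest for 3 or 4 members. In untreated replicate 3 only 1 of 13 was above its group mean and 6 were the lowest of their group. The proliferation markers moved with the class: Mki67 had 8.46, 4.91, 9.78 and 8.29 CPM with TGF-β1 and 65.9, 63.9, 61.8 and 66.6 CPM without (log2 fold change −3.04 ± 0.10, edgeR adjusted p = 9.56e-16). In bulk RNA, fewer dividing cells and less of these transcripts per dividing cell cannot be told apart. Cardiomyocyte markers fell in the same libraries, and their part in this result was not tested.

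Set per gene length, the mitotic motors made up 2.67, 2.46, 2.81 and 2.74% of the summed kinesin level in TGF-β1 libraries and 13.8, 13.7, 12.5 and 13.5% in untreated libraries. The level used here is RPKM, the TMM-scaled CPM per kilobase of gene length. The mitotic sum was 6.13 ± 0.32 RPKM with TGF-β1 and 32.6 ± 2.57 RPKM without (SD, n = 4 each). The transport sum was 192.4 ± 1.59 RPKM with TGF-β1 and 188.4 ± 6.64 RPKM without, so that these motors gave most of the family's level in both groups, and their ranges overlapped. The other kinesins summed to 31.0 ± 0.28 RPKM with TGF-β1 and 22.1 ± 0.29 RPKM without. Kif26b gave 19.9 RPKM of this sum with TGF-β1 and 10.3 RPKM without.

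**Figure D3:**
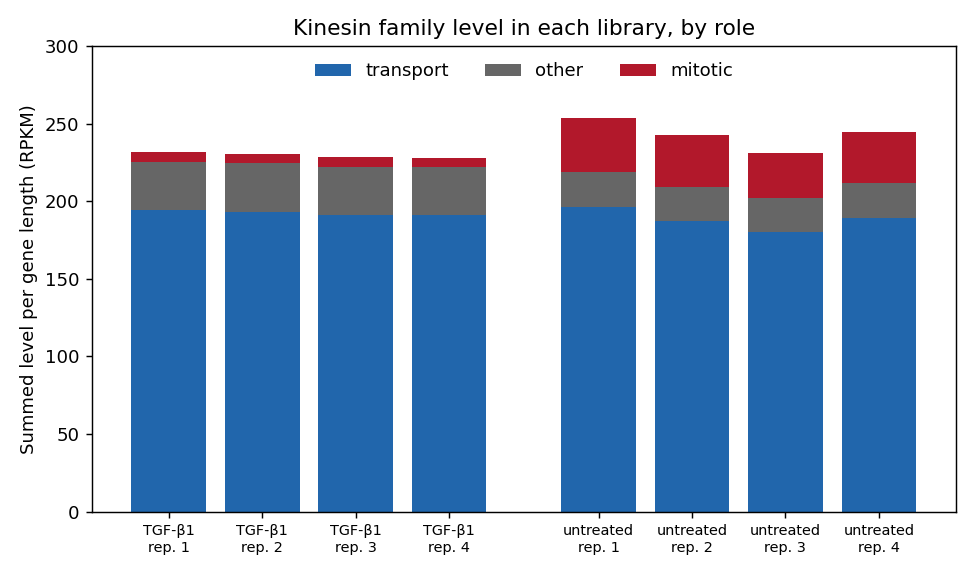
Summed level of all kinesin genes in each library (RPKM, TMM-scaled CPM per kilobase of gene length), stacked by role. The mitotic part is 5.67 to 6.42 RPKM in TGF-β1 libraries and 28.9 to 34.99 RPKM in untreated libraries, while the transport part is 191.1 to 194.3 RPKM with TGF-β1 and 180.3 to 196.4 RPKM without.

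The promoters of the mitotic motors were read because these genes moved together. RefSeq promoters (250 bases before to 50 bases after the start, GRCm38.p6) were found for 33 of the 43 kinesin genes. Genes of late cell cycle phases often carry the cell cycle genes homology region (CHR), with the letters TTTGAA, and CCAAT boxes bound by the factor NF-Y. On either strand, TTTGAA was in 11 of 13 promoters of mitotic kinesins, in 1 of 12 of transport kinesins and in 2 of 12 of other kinesins, against 17.9% of all 32851 promoters in the table. CCAAT was in 9 of 13, 4 of 12 and 4 of 12, against 37.4% of all promoters. These counts are of promoters: the 13 mitotic ones belong to 13 genes, but the 12 transport and 12 other ones to 10 genes each. Overlapping promoters of Kif1b are each counted among those with CCAAT. Both motifs stood together in 8 of 13 mitotic promoters, against 6.95% of all. These 13 promoters are not those of the 13 tested mitotic motors. Kif20a has no promoter among those found, and Kif2b, which had no counts, is included and holds a CCAAT box. Kifc1 and Kifc5b, which are similar in sequence, are both among the 8. The last bases of the Kif2c promoter were found in none of its GENCODE transcripts. The E2F letters TTTCCCGC, or in their other form TTTGGCGC, were in 2 of 13, those of Kif15 and Kif18a, against 1.56% of all. The 3 mitotic motors below are those with the smallest p that hold both motifs, and below them stand the 2 kinesins with the largest rise. Each is written 5′ to 3′ along the gene, and capitals mark TTTGAA and the box CCAAT, or the reverse complement of either.
Kif11 (chr19:37376132-37376431, plus strand): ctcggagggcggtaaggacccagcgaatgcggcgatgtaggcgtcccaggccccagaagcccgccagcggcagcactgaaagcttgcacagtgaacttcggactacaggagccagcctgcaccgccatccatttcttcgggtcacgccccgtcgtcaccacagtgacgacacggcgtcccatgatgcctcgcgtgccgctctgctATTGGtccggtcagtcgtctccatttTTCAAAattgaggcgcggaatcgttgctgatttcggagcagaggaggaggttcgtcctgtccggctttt
Kif22 (chr7:127042371-127042670, minus strand): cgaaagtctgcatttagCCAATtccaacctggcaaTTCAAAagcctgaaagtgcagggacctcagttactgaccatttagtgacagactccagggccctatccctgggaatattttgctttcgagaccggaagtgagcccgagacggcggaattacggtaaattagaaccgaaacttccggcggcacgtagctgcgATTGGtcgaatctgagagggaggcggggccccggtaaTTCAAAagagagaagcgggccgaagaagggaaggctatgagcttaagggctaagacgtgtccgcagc
Kif4 (chrX:100625815-100626114, plus strand): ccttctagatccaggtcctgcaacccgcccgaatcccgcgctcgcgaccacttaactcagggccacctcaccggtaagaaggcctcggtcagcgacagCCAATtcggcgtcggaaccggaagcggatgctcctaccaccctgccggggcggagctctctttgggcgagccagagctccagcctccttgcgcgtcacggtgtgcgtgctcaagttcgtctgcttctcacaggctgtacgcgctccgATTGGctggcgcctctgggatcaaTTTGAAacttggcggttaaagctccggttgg
Kif26b (chr1:178528875-178529174, plus strand): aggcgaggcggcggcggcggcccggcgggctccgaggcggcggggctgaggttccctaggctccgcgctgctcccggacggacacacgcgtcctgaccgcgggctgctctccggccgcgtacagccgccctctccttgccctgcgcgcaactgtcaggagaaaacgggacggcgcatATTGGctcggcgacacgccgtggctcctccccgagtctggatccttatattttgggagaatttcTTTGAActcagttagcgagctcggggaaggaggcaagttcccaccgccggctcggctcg
Kif5c (chr2:49619036-49619335, plus strand): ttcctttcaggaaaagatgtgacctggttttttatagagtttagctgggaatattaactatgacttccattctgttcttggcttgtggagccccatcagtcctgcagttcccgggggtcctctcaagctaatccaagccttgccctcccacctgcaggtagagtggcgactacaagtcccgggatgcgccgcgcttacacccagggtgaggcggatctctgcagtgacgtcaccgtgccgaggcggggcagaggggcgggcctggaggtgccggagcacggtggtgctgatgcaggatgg

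In Kif11 the inverted CHR begins 19 bases before the start site and the inverted CCAAT box 45 bases before it, and in Kif22 the nearest pair begins 17 and 54 bases before the start. In Kif4 the CHR lies at position 20 after the start. The promoter of Kif26b, which rose, also holds a CHR and an inverted CCAAT box, 9 and 73 bases before the start, and that of Kif5c holds neither. The letters of the motifs therefore did not divide the kinesins fully by direction, and a match is not evidence of binding.

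The transport motors showed smaller differences. Kif5c, a heavy chain of conventional kinesin best known from neurons (ENSMUSG00000026764, GRCm39 chromosome 2, 49509310 to 49664790, plus strand), rose the most of all 35. It had 16.2, 16.7, 16.5 and 16.9 CPM in TGF-β1 libraries and 7.97, 7.69, 8.76 and 8.11 CPM in untreated libraries. The fold change was 2.04, or 1.03 ± 0.09 on the log2 scale (± SE, adjusted p = 6.36e-09 by edgeR). The sister heavy chains had smaller values. Kif5b, the heavy chain found in most cells and the most abundant kinesin per length in both groups (68.4 ± 2.05 RPKM with TGF-β1 and 61.2 ± 2.72 RPKM without), had 534, 536, 545 and 569.9 CPM with TGF-β1 and 513, 476, 465 and 499 CPM without. The rise was 1.119-fold, a log2 fold change of 0.16 ± 0.04 (edgeR adjusted p = 0.00184). Kif5a, the other neuronal heavy chain, was low at 1.19 ± 0.38 CPM with TGF-β1 and 1.22 ± 0.28 CPM without and was not called (edgeR adjusted p = 0.957).

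Kif3a and Kif3b form kinesin-II, the motor that carries cargo toward the tip of cilia, with Kif3c as an alternative partner of Kif3a. Kif3b had 65.5, 65.2, 65.6 and 65.7 CPM in TGF-β1 libraries and 56.4, 54.9, 58.1 and 59.2 CPM in untreated libraries, with no overlap (log2 fold change 0.20 ± 0.05, edgeR adjusted p = 0.00193). Kif3a (0.01 ± 0.07) and Kif3c (0.14 ± 0.07) were not called, and antisense exons cover 39.9% of the exonic bases of Kif3c. When counts were scaled by library totals, the calls of Kif5b and Kif3b were lost (edgeR adjusted p = 0.151 and 0.0702), and 1 transport motor was then called higher and 4 lower.

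Kifc3, a minus-end motor of the Golgi and of cell junctions, fell, with 46.5, 46.7, 50.6 and 40.1 CPM with TGF-β1 and 62.4, 56.2, 55.3 and 59.9 CPM without (log2 fold change −0.35 ± 0.06, edgeR adjusted p = 0.000137). The groups did not overlap, though 34.8% of its exonic bases lie under antisense exons. Kif1c, a vesicle motor that was second in level per length in both groups (48.3 ± 2.46 RPKM with TGF-β1 and 52.98 ± 3.24 RPKM without), had 364.2, 368.6, 342.0 and 331.0 CPM with TGF-β1 and 404.9, 400.1, 352.6 and 384.3 CPM without. The groups overlapped and the log2 fold change was −0.13 ± 0.04 (edgeR adjusted p = 0.0234). That call was lost without TGF-β1 replicate 3 or 4 and without untreated replicate 1 or 2 (edgeR adjusted p = 0.0787, 0.0885, 0.0595 and 0.0815), leaving 1 transport motor called lower.

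The other 9 tested transport motors were not called. They included Kif1a, a motor of synaptic vesicle precursors in axons, which was among the most abundant kinesins here at 18.8 ± 0.99 RPKM with TGF-β1 and 18.04 ± 1.00 RPKM without. Its normalised count was 187.5, 178.2, 168.1 and 168.5 CPM with TGF-β1 and 174.4, 165.7, 177.0 and 156.3 CPM without. Markers of Schwann cells and neurons were low in the same libraries: 6 of 7 did not pass the filter, and the sum was 1.62 to 2.15 CPM with TGF-β1 and 1.35 to 2.52 CPM without. The neuronal genes Snap25 and Rbfox3 had 1 and 2 counts in all TGF-β1 libraries and 0 in untreated libraries. Syt1, also neuronal, had 15 counts in TGF-β1 and 12 in untreated libraries. Kif1b, which carries mitochondria and vesicles (0.05 ± 0.04), the endosome motors Kif13a (0.07 ± 0.06), Kif13b (−0.10 ± 0.07) and Kif16b (−0.13 ± 0.07), and Kifc2 (−0.42 ± 0.27) completed the class. Kif17 did not pass, with 13 counts in all TGF-β1 libraries and 29 in untreated ones.

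Among the other kinesins, Kif26b had the smallest p of the whole family (ENSMUSG00000026494, GRCm39 chromosome 1, 178356690 to 178766765, plus strand). It encodes an atypical kinesin known from kidney development and from signalling by Wnt5a through ROR receptors. It had 286.7, 302.4, 294.6 and 286.3 CPM in TGF-β1 libraries and 146.4, 154.1, 151.7 and 156.1 CPM in untreated libraries. The rise was 1.92-fold, 0.94 ± 0.04 on the log2 scale (± SE, adjusted p = 8.60e-15 by edgeR), and per length Kif26b held rank 3 of the kinesins in TGF-β1 libraries and rank 6 in untreated ones. Its relative Kif26a was low and not called (−0.34 ± 0.20).

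Kif21b, which limits the growth of microtubules in neurons and T cells, had 10.1, 11.5, 10.6 and 10.6 CPM in TGF-β1 libraries and 6.37, 6.70, 6.20 and 4.59 CPM in untreated libraries. The groups did not overlap (log2 fold change 0.84 ± 0.13, edgeR adjusted p = 1.22e-05), and its relative Kif21a was not called (0.05 ± 0.11). Kif24, a centriolar depolymerase that holds back cilium formation, had 3.10, 2.70, 2.25 and 1.97 CPM with TGF-β1 and 4.71, 4.78, 4.25 and 3.70 CPM without. It was lower in every TGF-β1 library (log2 fold change −0.80 ± 0.19, edgeR adjusted p = 0.00192). Kif7, a regulator of hedgehog signalling in cilia, had lower values with TGF-β1 (10.6 ± 0.20 CPM) than without (11.7 ± 0.35 CPM) but was not called (−0.15 ± 0.09, edgeR adjusted p = 0.226).

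The last called members were close to the threshold. Kif2a, a depolymerase related to Kif2c that also acts outside mitosis, had 32.9, 28.2, 30.3 and 29.6 CPM in TGF-β1 libraries and 37.7, 31.8, 33.6 and 35.4 CPM in untreated libraries (log2 fold change −0.20 ± 0.07, edgeR adjusted p = 0.0274). Antisense exons cover 41.1% of its exonic bases, mostly those of Dimt1, which rose by 0.34 ± 0.09. Kif9, a motor of ciliary motility, had 1.90, 2.42, 2.25 and 2.33 CPM in TGF-β1 libraries and 1.93, 0.929, 1.42 and 1.37 CPM in untreated libraries (log2 fold change 0.66 ± 0.26, edgeR adjusted p = 0.0495). Both pairs of groups overlapped. The Kif2a call was lost under 7 of 18 alternatives and the Kif9 call under 13 of 18. Without TGF-β1 replicate 2, 3 or 4, or without untreated replicate 4, 3 other kinesins were called in place of 5. Kif6, Kif12, Kif19a, Kif19b, Kif27 and Kif28 did not pass the filter, with Kif12 at 0 counts in all libraries and Kif6 at 38 counts in TGF-β1 and 37 in untreated libraries.

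**Figure D4:**
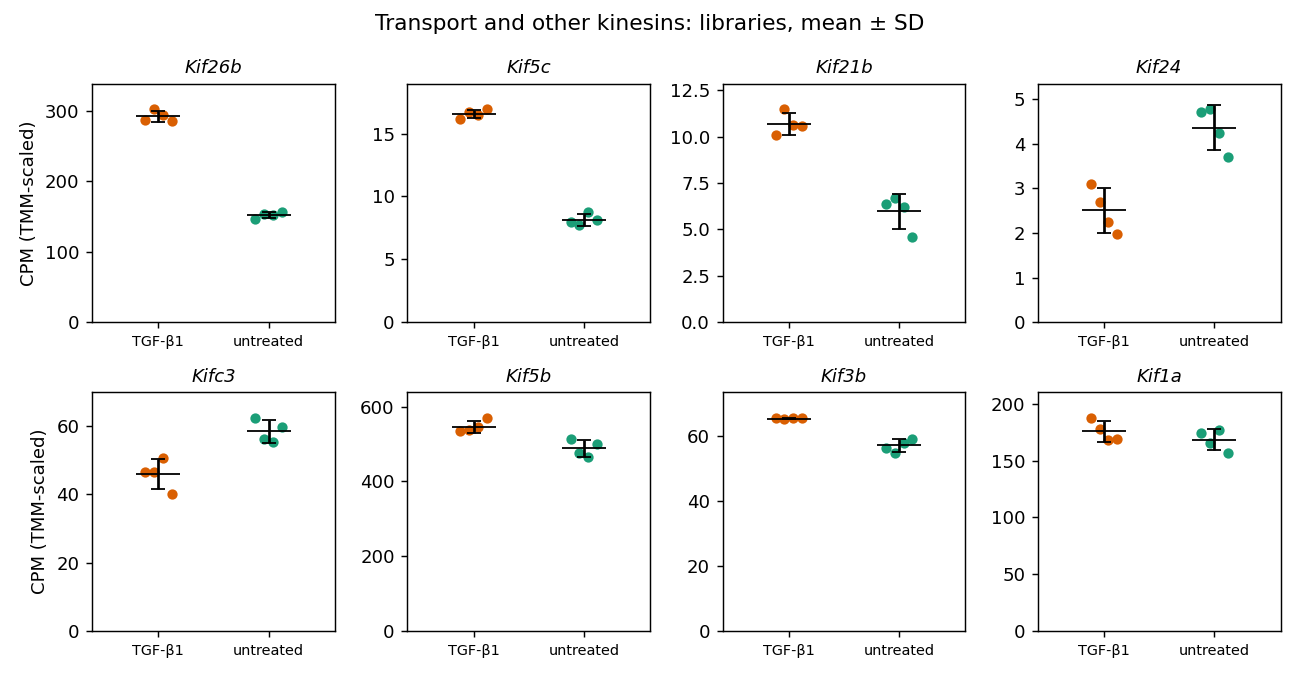
Normalised read counts (CPM, TMM-scaled) of 8 transport and other kinesins in each library, with mean ± SD of 4 libraries. Kif26b, Kif5c and Kif21b lie higher in all TGF-β1 libraries and Kif24 and Kifc3 lower, Kif5b and Kif3b differ by less, and the Kif1a groups overlap.

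Partner genes of the mitotic motors fell with them. All 15 genes on the list of spindle and midzone partners were called lower, against 18.5% of all genes tested, with a median log2 fold change of −2.44. The partner lists were chosen with earlier results of these data known, so this share is a description and not a test. Prc1, which bundles midzone microtubules and binds Kif4, was at 4.01 ± 0.86 CPM with TGF-β1 and 34.0 ± 2.75 CPM without (log2 fold change −3.08 ± 0.11). Racgap1, the partner of Kif23, changed by −2.06 ± 0.08, Tpx2, which binds Kif11 on the spindle, by −2.45 ± 0.08, and Cenpe, a kinetochore kinesin outside the Kif names, by −2.61 ± 0.13. The smallest fall was that of Numa1 (−0.32 ± 0.04), which also acts in interphase nuclei.

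Partners of the transport motors showed no such common fall, and their counts stand beside 17.6% of all genes called higher and 18.5% lower. Among light chains and cargo adaptors 3 of 16 tested rose, namely Klc2 (0.33 ± 0.06), the mitochondrial adaptor gene Rhot1 (0.16 ± 0.04) and the lysosomal one Arl8a (0.17 ± 0.05), and Mapk8ip1 fell (−0.37 ± 0.06). The share that rose was near that of all genes, and with library totals 1 rose and 5 fell. Of 19 genes of cytoplasmic dynein, the motor that runs the other way along microtubules, and its activator dynactin, 6 rose and none fell, with Dynlt3 at 0.30 ± 0.04 and the heavy chain gene Dync1h1 at 0.17 ± 0.04, whereas with library totals 3 rose and 3 fell. Of 11 tubulins, the track of these motors, 5 rose and 3 fell, or 3 and 3 with library totals. Tubb3, a β-tubulin best known from neurons, rose by 0.60 ± 0.06, and Tubb5 fell by 0.19 ± 0.03.

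**Figure D5:**
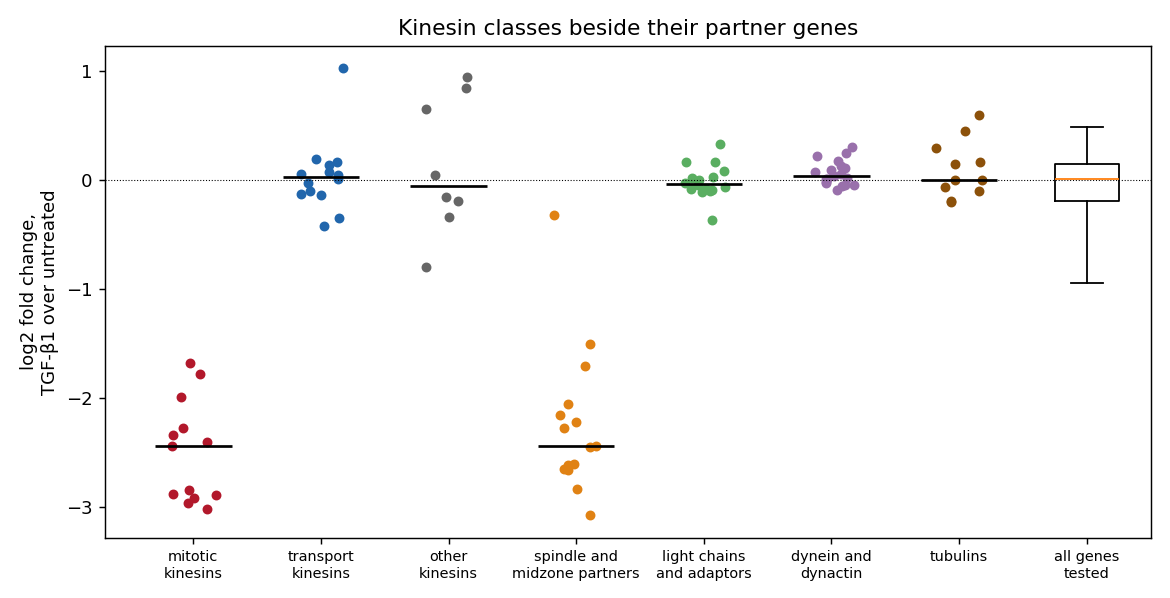
Log2 fold change of TGF-β1 over untreated libraries for the tested members of 3 kinesin classes and 4 partner lists, with lines at the medians; the box shows all 13960 genes tested with quartiles at −0.19 and 0.15 and whiskers at the 5th and 95th percentiles, −0.95 and 0.49. The mitotic kinesins and the spindle and midzone partners share a median of −2.44, and the other lists have medians between −0.05 and 0.04.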

How the data were processed

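The authors deposited whole-number read counts per gene, which were not normalized, and a second table of FPKM values. Per the submitters' processing notes CASAVA, HISAT2, featureCounts and Subread were used, without versions. Within each library the deposited FPKM are proportional to count over gene length, and the total they imply is 0.971 to 1.068 of the counts in the table. The processing notes name GRCm38 and the series design names mm39. Of coding genes found in each build, 99.9% sit on their own locus in GRCm39 but 15.9% in GRCm38, so the coordinates are read as GRCm39.

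Genes were kept by filterByExpr (minimum count 10, minimum total 15), which left 13960 with 35 kinesins. After TMM scaling, the two-sided quasi-likelihood test of edgeR 4.0.16 (R 4.3.3) was run with group as the only term and Benjamini-Hochberg adjustment over all genes. Standard errors are |log2 fold change| / √F. CPM use the TMM-scaled library total, and RPKM are CPM per kilobase of the deposited gene length. On simulated counts for 13960 genes the test recovered 48% of genes changed by 1.25-fold, 92% at 1.5-fold and 94% at 2-fold, with 10 false calls. Scaled by library totals, replicates within groups differed by 2.07 to 3.17 times the sampling noise (median chi-square), more than repeat sequencing of the same library would give. This measure cannot show that libraries came from separate cultures. Alternatives used limma 3.58.1 and DESeq2 1.42.0.

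The role classes, partner lists and markers were chosen with earlier results of these data known. Named with values in every library were, per class, the 6 called members with the smallest p in each direction and the member with the highest level per length. Motif searches, the Cdc23 and Dimt1 values, and the per-library values of Kif1a were added after values were seen.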

Additional observations from a re-analysis of the deposited data

Results flagged for a closer look

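Among the 70 groups of 4 libraries (35 tested kinesins in 2 groups), 2 held a library far from the other 3, and chance gives about 1 in 20. Both were in untreated replicate 1, the library with little ribosomal RNA. Kif18a was at 4.71 CPM there, against 6.13 to 6.20 CPM in the other untreated libraries. Kif13b was at 60.4 CPM there, against 49.2 to 51.0 CPM in the others. Without this library Kif18a was still called lower and Kif13b was still not called.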

How the results depend on the processing

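Of 35 tested kinesins, 22 kept their direction and side of the threshold under all 18 alternatives, among them all 13 mitotic motors. With library totals, 1 transport motor was called higher and 4 lower, the transport median was −0.050 (the cause was not tested), and calls over all genes were 1301 higher and 3673 lower, against 2451 and 2579 with TMM. In the limma fits, which used FPKM with 1 or 0.1 added, 1 transport motor was called lower, and the mitotic median was −1.20 and −2.15, since the added constant shrinks changes of low genes. Without Kifc1 and Kifc5b the mitotic median was −2.85. With Kif2a and Kif24 counted as mitotic, 3 other kinesins were called. Leaving out 1 library at a time gave 20 to 22 kinesins called, always 13 mitotic motors lower with medians of −2.52 to −2.41, 3 transport motors higher and 1 to 2 lower with medians of 0.0099 to 0.058, 3 to 4 other kinesins, and 4517 to 4750 genes in all. The signs of some uncalled members reversed. With library totals they were Kif1b (−0.030), Kif1a (−0.021), Kif13a (−0.0088), Kif3a (−0.069) and Kif21a (−0.035), and with upper-quartile scaling Kif3a (−0.0020). Over the fits that left out 1 library, Kif3a spanned −0.025 to 0.055, Kif5a −0.203 to 0.150 and Kif21a −0.053 to 0.089. With the replicate number as a block, 22 kinesins and 4971 genes were called, only Kif9 was lost among the kinesins. Neither the labels nor the correlations of same-numbered libraries (−0.05 to 0.06) tie those libraries to a shared litter, and not every library correlated best with its own number. A repeat without ribosomal RNA genes and Lars2, chosen after seeing the data, called 22 kinesins. Small counts limit the test: Kif17 and 7 more did not pass the filter.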
